A study of Homo sapiens with 13 samples.

Results

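Chromatin accessibility was followed at 9 genes of the YAP/TAZ-TEAD axis in T98G, a long-established line from a human glioblastoma. The genes were the DNA-binding factors TEAD1, TEAD3 and TEAD4, the coactivator genes YAP1 and WWTR1 (which encodes TAZ), and CCN1, CCN2, ANKRD1 and AMOTL2, which are widely used as readouts of YAP and TAZ activity. Every ATAC-seq peak that overlapped a gene body extended by 10 kb on each side was taken, which gave 76 of the 129347 peaks in the table. Of these, 10 overlapped a transcription start site (TSS) of the gene and are called TSS peaks, and 66 did not and are called flanking peaks. ATAC-seq uses the Tn5 transposase to place sequencing adapters in DNA, and open chromatin collects the most reads.

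The G1 group held 3 libraries of cells kept without serum for 72 h. The M-phase group held 3 libraries of cells kept without serum for 48 h, released for 36 h into 20% serum with nocodazole, and collected by shaking off the rounded cells. Nocodazole, which depolymerizes microtubules and holds cells in mitosis, was used at 0.2 μg/mL. Both groups came from the same line. Serum, drug and phase changed together and cannot be told apart, and the labels do not say whether replicates were separate cultures. The sample titles name no sequencer for G1, and for every M-phase replicate they name a HiSeq run and a NextSeq run.

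In the Hippo pathway the STK3 and STK4 kinases, with SAV1, activate the LATS kinases, which phosphorylate YAP and TAZ and keep them out of the nucleus. Unphosphorylated YAP and TAZ enter the nucleus, where they bind DNA through TEAD factors and often act at enhancers that also carry AP-1 sites. Serum is a known activator of YAP and TAZ, and both are frequently active in glioblastoma. RNA was not measured in these libraries, so the values below describe how open the DNA was and not how much a gene was transcribed.

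The DNA upstream of the target genes carries the TEAD core CATTCC. The letters were searched on both strands, together with TGANTCA for AP-1, TGTGGT for RUNX, TGTTTAC for FOX and the CArG box bound by SRF, and none of these patterns contains another. N stands for any base. Every match to TGANTCA is called an AP-1 site from here on, whatever its middle base, and all AP-1 counts and shares pool these matches. In the 250 bases before the main TSS, 7 of 9 genes had at least 1 TEAD core, against 9.82% of the 19881 windows of the same kind in the genome. CCN2 had 3, starting 169, 104 and 95 bases before the TSS, ANKRD1 had 2, and CCN1, AMOTL2, TEAD1, TEAD4 and YAP1 had 1 each. Only ANKRD1 also had an AP-1 site in that window, which 4.69% of all windows had. The windows of CCN1, CCN2 and ANKRD1, commonly used YAP/TAZ reporter genes, are shown on the gene's strand, 5′ to 3′, from the GRCh37 (hg19) genome, with every match to these motifs in capitals. A TEAD core on the other strand reads GGAATG. The TGATTCA of ANKRD1 is its match to the AP-1 pattern, with T as the middle base.
CCN1, chr1:86046194-86046443, plus strand: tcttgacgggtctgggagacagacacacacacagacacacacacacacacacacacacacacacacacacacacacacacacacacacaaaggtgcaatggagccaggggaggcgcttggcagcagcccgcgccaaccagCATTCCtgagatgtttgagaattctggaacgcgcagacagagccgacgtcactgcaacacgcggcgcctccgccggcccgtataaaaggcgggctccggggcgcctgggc
CCN2, chr6:132272513-132272762, minus strand: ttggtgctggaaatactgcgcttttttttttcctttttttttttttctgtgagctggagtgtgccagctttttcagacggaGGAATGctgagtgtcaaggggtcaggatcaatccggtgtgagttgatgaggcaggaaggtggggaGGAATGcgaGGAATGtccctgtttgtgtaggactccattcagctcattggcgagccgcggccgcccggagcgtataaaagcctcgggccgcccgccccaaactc
ANKRD1, chr10:92680845-92681094, minus strand: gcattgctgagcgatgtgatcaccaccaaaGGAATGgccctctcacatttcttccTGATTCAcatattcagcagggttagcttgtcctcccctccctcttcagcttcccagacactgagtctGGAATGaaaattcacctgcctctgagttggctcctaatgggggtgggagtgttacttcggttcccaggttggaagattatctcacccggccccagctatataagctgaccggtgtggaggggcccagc

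Away from the start sites, several flanking peaks of the same genes changed between the phases, and the centres of 5 of them are shown. Each is the central 300 bases of the peak, on the strand of the gene, with the same motifs in capitals. The first 3 were less open in M-phase than in G1 and lie near target genes. In the CCN2 sequence an AP-1 site, TGAGTCA, is followed directly by a TEAD core with no base between them, and a further core, as GGAATG, lies near the other end. The ANKRD1 sequence has 1 TEAD core. The AMOTL2 sequence has no TEAD core and a single RUNX match, ACCACA on this strand. The remaining sequences are an intronic peak of WWTR1 that fell, with 1 TEAD core and 2 AP-1 sites, and an intronic peak of YAP1 that rose, with 2 AP-1 sites and a CArG box. The AP-1 sites of WWTR1 and YAP1 have A or T as the middle base, and that of CCN2 has G. Other called peaks are not shown, among them an intronic TEAD1 peak that rose, with 2 TEAD cores in its central 300 bases. Over the central 300 bases of all 113216 peaks at no TSS, 18.6% held a TEAD core, 17.6% an AP-1 site, 24.0% a RUNX site and 1.47% a CArG box, so single matches of these short motifs are common.
CCN2 upstream peak, chr6:132275747-132276046, minus strand: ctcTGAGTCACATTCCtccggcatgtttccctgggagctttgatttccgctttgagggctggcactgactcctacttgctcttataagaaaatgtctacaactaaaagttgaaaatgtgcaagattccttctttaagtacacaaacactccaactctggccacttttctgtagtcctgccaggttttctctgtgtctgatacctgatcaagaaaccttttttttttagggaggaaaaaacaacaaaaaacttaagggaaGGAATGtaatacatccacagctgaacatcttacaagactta
ANKRD1 upstream peak, chr10:92690559-92690858, minus strand: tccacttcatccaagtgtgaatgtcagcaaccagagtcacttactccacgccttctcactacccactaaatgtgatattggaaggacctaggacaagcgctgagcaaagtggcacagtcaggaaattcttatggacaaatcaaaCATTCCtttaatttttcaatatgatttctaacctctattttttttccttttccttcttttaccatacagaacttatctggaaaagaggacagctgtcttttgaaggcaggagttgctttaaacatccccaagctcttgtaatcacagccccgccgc
AMOTL2 intragenic peak, chr3:134076759-134077058, minus strand: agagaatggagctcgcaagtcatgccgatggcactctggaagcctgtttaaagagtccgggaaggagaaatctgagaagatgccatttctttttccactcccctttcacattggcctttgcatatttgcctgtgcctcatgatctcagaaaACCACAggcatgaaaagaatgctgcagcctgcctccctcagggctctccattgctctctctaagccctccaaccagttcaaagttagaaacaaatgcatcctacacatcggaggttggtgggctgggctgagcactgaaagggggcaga
WWTR1 intronic peak, chr3:149272715-149273014, minus strand: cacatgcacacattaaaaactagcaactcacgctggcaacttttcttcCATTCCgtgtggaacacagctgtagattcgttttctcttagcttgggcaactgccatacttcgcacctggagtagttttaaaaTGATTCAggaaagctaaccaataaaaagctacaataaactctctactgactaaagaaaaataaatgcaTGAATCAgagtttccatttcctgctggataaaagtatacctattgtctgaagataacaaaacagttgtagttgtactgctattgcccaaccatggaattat
YAP1 intronic peak, chr11:102009744-102010043, plus strand: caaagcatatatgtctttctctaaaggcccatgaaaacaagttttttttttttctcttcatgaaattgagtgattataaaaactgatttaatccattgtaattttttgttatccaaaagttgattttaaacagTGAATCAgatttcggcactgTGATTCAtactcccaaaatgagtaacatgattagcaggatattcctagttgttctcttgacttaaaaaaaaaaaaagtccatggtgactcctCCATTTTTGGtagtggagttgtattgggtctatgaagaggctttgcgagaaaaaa

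Values are scaled counts, which are reads in a peak after the authors scaled every library down to the smallest. Allowing for rounding, the deposited values lay on whole multiples of 1 read, which gave between 4333935 and 5365024 reads in peaks in the G1 libraries and between 12470564 and 14202790 in the M-phase libraries. The G1 values therefore carried more counting error, and depth and sequencing platform cannot be told apart from the phase. After the authors' scaling the totals in peaks still differed, from 4.19e+06 to 5.09e+06 in the G1 libraries and from 5.48e+06 to 6.00e+06 in the M-phase libraries. Changes are on the scale of log2(scaled count + 8), as M-phase over G1, with their standard error (SE), and this scale understates the change of low peaks. A peak was called when its adjusted p from limma was under 0.05, with adjustment over all 73121 peaks that passed a filter on low values. All 10 TSS peaks and 41 of the 66 flanking peaks passed the filter, and the 25 flanking peaks that did not had mean scaled counts of at most 11.4.

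Under the authors' scaling, the start sites of TEAD1, TEAD4, YAP1, CCN1 and CCN2 were called more accessible in M-phase than in G1. No start was called less accessible under that scaling. Of the 10 TSS peaks, 5 rose, 0 fell and 5 were not called by limma. At an unadjusted p under 0.05 the number that fell was also 0, as it was with edgeR and DESeq2. Over all 15500 tested peaks at a TSS, 43.2% rose and 5.94% fell, so the share that rose among the 9 genes was close to the background. The median log2 change was 0.49 over the 10 TSS peaks and 0.39 over all tested TSS peaks. The count was 8 without G1 replicate 3, where 49.5% of all TSS peaks rose. With every library set to the same total in peaks it was 3, where 29.3% of all rose. With a trended loess normalization 2 rose and 1, the main WWTR1 start, fell, where 21.3% of all rose and 17.1% fell.

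**Figure D1:**
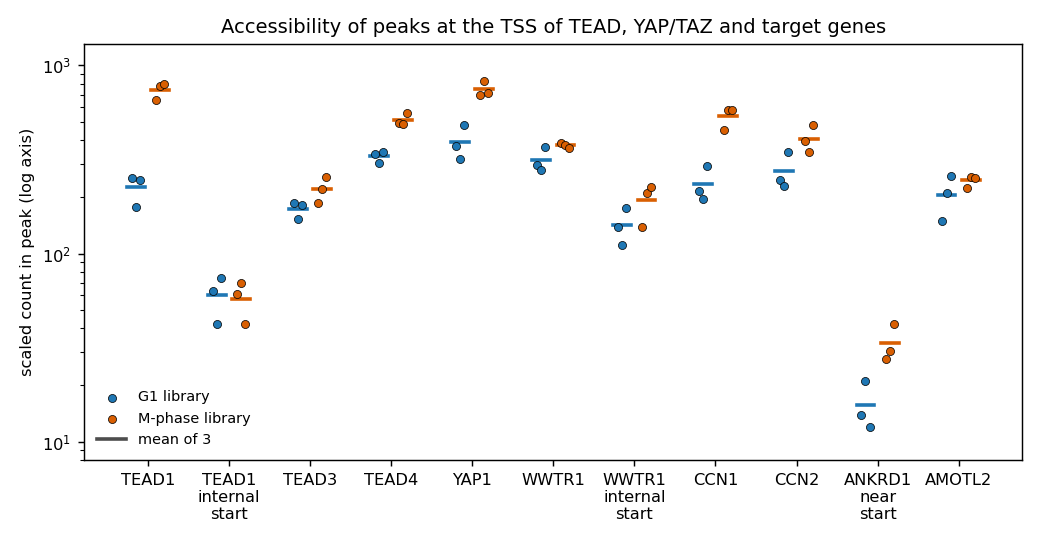
Scaled counts (log axis) of the peaks at the start of each gene in 3 G1 and 3 M-phase libraries, 1 point per library and a bar at the mean of 3; "internal start" marks a second annotated start inside the gene. The M-phase points of TEAD1 lie between 655 and 799.2 and its G1 points between 175.8 and 252.5, while the points of the phases overlap at TEAD3, AMOTL2, the main WWTR1 start and both internal starts; TEAD1 and CCN1 were called under each of the 15 other settings tried, whereas TEAD4 and CCN2 turned to lower values under loess.

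Among the DNA-binding factors, TEAD1 changed most. Its main TSS peak (chr11:12695390-12696958), which covers exon and UTR sequence at the start of TEAD1, had scaled counts of 252.5, 175.8 and 245 in G1 and of 655, 778.7 and 799.2 in M-phase. Every M-phase library was above every G1 library. The means were 224.4 ± 42.3 and 744.3 ± 78.0 (SD, n = 3), a log2 change of 1.71 (SE 0.17, adjusted p = 5.70e-14), and of all TSS peaks of the 9 genes this was the largest. The call held in each of the 15 alternatives with one library left out, another scaling, filter, pseudocount or model, with log2 changes from 0.92 to 1.80. A second annotated start lies inside TEAD1, 154 kb from the main one, and its peak (chr11:12849052-12850168) was weaker. It had 63.6, 42.2 and 74 in G1 against 61, 69.6 and 42.3 in M-phase. These values overlapped, and the log2 change of -0.04 (SE 0.24) was not called (adjusted p = 0.922).

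The TEAD4 TSS peak (chr12:3067722-3069781) had scaled counts of 339, 303.9 and 348 in G1 and 492.3, 490.3 and 556.2 in M-phase. The phases did not overlap, and the log2 change was 0.62 (SE 0.16, adjusted p = 0.00197), but it was 0.28 (adjusted p = 0.0651) with equal totals and -0.17 (adjusted p = 0.283) with loess. At the TEAD3 TSS peak (chr6:35464027-35465661) the values were 184.9, 152.3 and 182 in G1 and 184.6, 220.4 and 255.5 in M-phase. The phases overlapped there, and the log2 change of 0.33 (SE 0.19) was not called (adjusted p = 0.203). Neither gene had a called flanking peak of its own, and the strongest one of TEAD4 (chr12:3142491-3142722) changed by -0.08 (SE 0.29, adjusted p = 0.875).

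Of the coactivator genes, YAP1 was higher in M-phase at its start and WWTR1 was not called. The YAP1 TSS peak (chr11:101980588-101982973), which also covers the start of the uncharacterized gene ENSG00000277459, had 373.8, 319.5 and 485 in G1 and 692.5, 829 and 715.5 in M-phase. All M-phase values were above the G1 values, with a log2 change of 0.93 (SE 0.16, adjusted p = 2.82e-06). It was called in 14 of 15 alternatives and fell to 0.03 (adjusted p = 0.858) with loess. At the main WWTR1 start (chr3:149374841-149376780), shared with the antisense transcript WWTR1-AS1, the values were 295.3, 276.6 and 369 in G1 and 388.5, 376.6 and 365.2 in M-phase. G1 replicate 3 reached into the M-phase range, and the log2 change of 0.27 (SE 0.17, adjusted p = 0.255) turned to -0.08 with equal totals and to -0.45 (adjusted p = 0.00285) with loess. Its internal start (chr3:149293338-149294394) changed by 0.41 (SE 0.20) and was not called (adjusted p = 0.126).

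Of the target genes, CCN1 and CCN2 rose at their starts and AMOTL2 was not called. CCN1 and CCN2 encode secreted matricellular proteins that bind integrins. The CCN1 TSS peak (chr1:86046203-86047366) had 215.7, 196.1 and 291 in G1 and 452.7, 580.1 and 578.4 in M-phase. The phases did not overlap, the log2 change was 1.18 (SE 0.17, adjusted p = 4.15e-08), and the call held in all 15 alternatives, with log2 changes from 0.45 to 1.34. The CCN2 TSS peak (chr6:132270561-132272757), which also covers a start of LINC01013, had 245.6, 228.1 and 346 in G1 and 396.7, 347.8 and 481.2 in M-phase. The phases did not overlap, though G1 replicate 3 lay just under M-phase replicate 2. Its log2 change was 0.58 (SE 0.18, adjusted p = 0.00796), and it was not called without G1 replicate 1 (adjusted p = 0.0572), without M-phase replicate 3 (adjusted p = 0.122) or with equal totals, and reversed to -0.12 with loess.

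AMOTL2 encodes an angiomotin family protein that binds YAP and restrains it. Its TSS peak (chr3:134092398-134094112) had 148.1, 209.4 and 259 in G1 and 224.1, 256.7 and 253.1 in M-phase. G1 replicate 3 was the highest of all 6 libraries, and the log2 change of 0.27 (SE 0.19) was not called (adjusted p = 0.298). Without that library it was 0.45 (adjusted p = 0.0357), and with equal totals it was -0.07. ANKRD1, which encodes a nuclear ankyrin repeat cofactor of muscle and stressed cells, had no peak over its TSS. The nearest peak (chr10:92680871-92681297), centred at -0.24 kb and covering the TEAD and AP-1 letters shown above, was small. It had 13.9, 21.1 and 12 in G1 and 27.6, 30.5 and 42.3 in M-phase. All M-phase libraries were higher, with a log2 change of 0.81 (SE 0.28, adjusted p = 0.0219), but the call was lost without G1 replicate 1, G1 replicate 3 or M-phase replicate 3 (adjusted p from 0.0564 to 0.124) and with equal totals (adjusted p = 0.133).

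Per kb of peak, the order of the TSS peaks differed between the phases. In G1 the highest was CCN1, at 201.3 ± 43.0 scaled counts per kb (SD, n = 3), followed by YAP1, the main WWTR1 start, TEAD4 and TEAD1 between 143.0 and 164.6, and by the internal WWTR1 start, CCN2, AMOTL2 and TEAD3 between 105.9 and 134.3. Neighbours in this order overlapped throughout, except that the internal TEAD1 start, at 53.7 ± 14.5, lay below all the others. In M-phase TEAD1 was highest at 474.4 ± 49.7 scaled counts per kb and overlapped with CCN1 at 461.4 ± 62.8. YAP1 at 312.5 ± 30.6 and TEAD4 at 249.0 ± 18.2 each stood apart from their neighbours, and the next 5 starts, from WWTR1 at 194.2 ± 6.01 to TEAD3 at 134.7 ± 21.7, each overlapped with their neighbours among the 5. The internal TEAD1 start was again lowest, at 51.6 ± 12.5, and did not overlap with TEAD3. Peak borders were set by the peak caller, so a wide peak with weak edges has a lower value per kb.

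**Figure D2:**
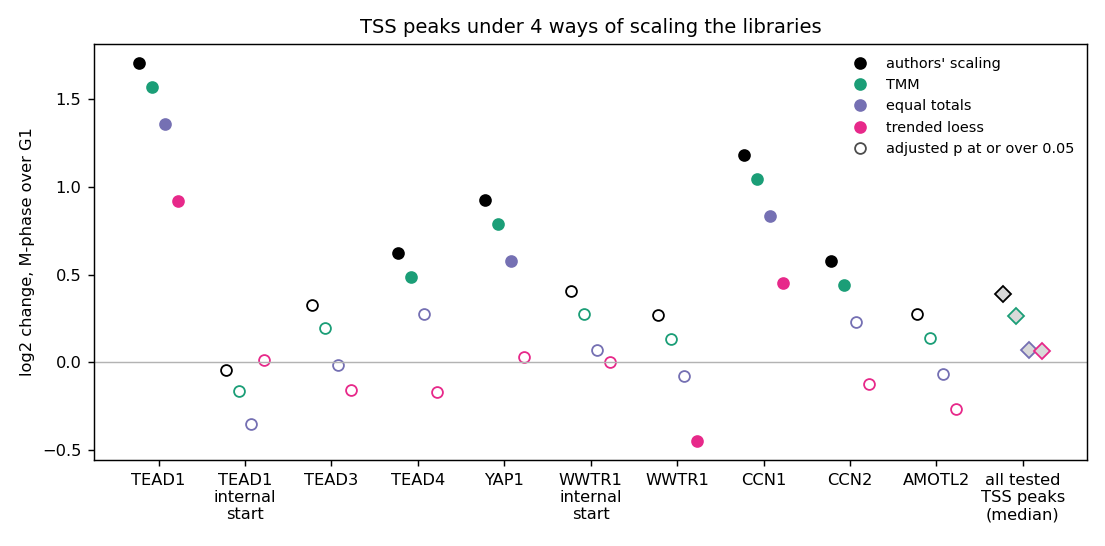
Log2 change of the 10 TSS peaks, as M-phase over G1, under the authors' scaling and 3 others; filled circles have an adjusted p under 0.05, open circles do not, and diamonds give the median of all tested TSS peaks. The points of TEAD1 and CCN1 stay above 0 and filled throughout, from 1.71 to 0.92 and from 1.18 to 0.45, while under loess TEAD3, TEAD4, CCN2, AMOTL2 and the main WWTR1 start lie below 0.

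The scaling of the libraries moved the values of the TSS peaks, and loess moved them unequally. The median log2 change of all tested peaks was 0.02 with the authors' scaling, -0.08 with TMM, -0.24 with equal totals and 0.03 with loess. For all tested TSS peaks the medians were 0.39, 0.26, 0.07 and 0.06, and for the 10 TSS peaks they were 0.49, 0.36, 0.15 and -0.06. The main TEAD1 start and CCN1 were above the median of all TSS peaks in each scaling, whereas the main WWTR1 start, AMOTL2, TEAD3 and the internal TEAD1 start were below it in each.

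The flanking peaks moved in both directions. Of the 41 tested, 7 rose, 5 fell and 29 were not called, with a median log2 change of -0.08, against 6.51% that rose and 15% that fell among all 57621 tested peaks at no TSS, whose median was -0.05. Of the 7 that rose, 2 lie at the start of another gene: a peak near TEAD3 is the promoter of RPL10A, which encodes a ribosomal protein, and a peak 3.44 kb before CCN1 covers a DDAH1 exon and the start of the lncRNA ENSG00000282057. Among the 39 flanking peaks at no start of another gene, 5 rose and 5 fell (12.8% each). Of the 36 that also lie over 1 kb from the gene's own starts, 3 rose (8.33%) and 5 fell (13.9%), close to the shares of all peaks at no TSS. With equal totals the counts over the 41 were 4 and 11, beside 3.12% that rose and 26.8% that fell among all peaks at no TSS under that scaling. Without M-phase replicate 3 the number that rose was 4 (4.58% of all), and without G1 replicate 3 the number that fell was 3 (11.3% of all).

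**Figure D3:**
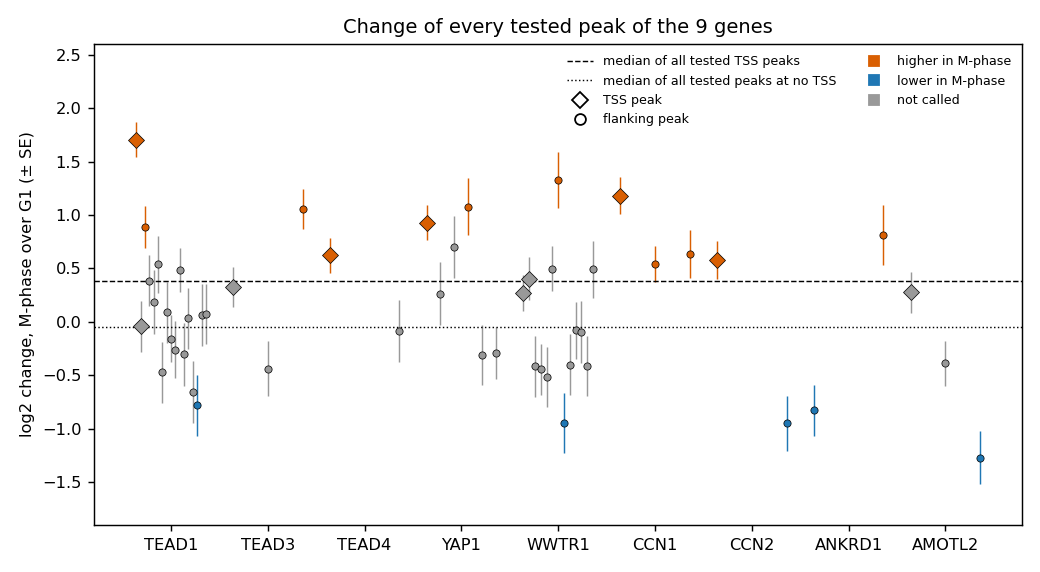
Log2 change, as M-phase over G1, of the 51 tested peaks of the 9 genes, with error bars of 1 SE; diamonds are TSS peaks, circles flanking peaks, coloured where the adjusted p was under 0.05, and the lines mark the medians of all tested TSS peaks (0.39) and of all tested peaks at no TSS (-0.05). Called TSS peaks (5, under the authors' scaling) lie above 0 only, while called flanking peaks lie on both sides and reach -1.27 at AMOTL2 and 1.33 at WWTR1.

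Distal peaks of 3 target genes were less open in M-phase. The largest fall was inside AMOTL2, 16.4 kb from its main TSS (chr3:134076594-134077222), in a peak that overlaps an AMOTL2 coding exon at its edge and an intron elsewhere. It had 60.6, 78.9 and 75 in G1 and 27.2, 18.1 and 30.3 in M-phase. No M-phase library came near the G1 range, with means of 71.5 ± 9.64 and 25.2 ± 6.34 (SD, n = 3), a log2 change of -1.27 (SE 0.25, adjusted p = 3.26e-05). The CCN2 upstream peak, centred at -3.38 kb in an intron of LINC01013 (chr6:132275693-132276100) and holding the adjoining AP-1 and TEAD letters, had 51.7, 39.1 and 74 in G1 and 26, 24.7 and 20.7 in M-phase. All 3 M-phase libraries were lower and close together, and the log2 change was -0.95 (SE 0.26, adjusted p = 0.00308). Both of these falls were called in all 15 alternatives, from -1.57 to -1.11 at AMOTL2 and from -1.24 to -0.74 at CCN2.

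The ANKRD1 upstream peak lies at -9.86 kb between genes (chr10:92690169-92691247). Over its whole width it had 3 TEAD cores, 1 RUNX match, 1 FOX match and 1 CArG box. Of 4713 peaks at no TSS and of similar width, 49.0% held a TEAD core, 55.1% a RUNX match, 14.4% a FOX match and 5.20% a CArG box. The ANKRD1 upstream peak had 59.7, 74.2 and 113 in G1 and 48.6, 43.7 and 33.2 in M-phase. The phases did not overlap, G1 replicate 3 was by far the highest, and the log2 change of -0.83 (SE 0.24, adjusted p = 0.00529) became -0.59 (adjusted p = 0.0597) without that library. A further AMOTL2 peak, 10.1 kb inside the gene (chr3:134082818-134083592), changed by -0.39 (SE 0.21) and was not called (adjusted p = 0.167), though with TMM, equal totals and loess it was lower in M-phase, by -0.52 to -0.72. CCN1 had no such distal peak, and its remaining flanking peak, 1.78 kb into this short gene (chr1:86047976-86048475), had 52.7, 50 and 84 in G1 and 96.4, 96.8 and 102.5 in M-phase. All M-phase values were higher, with a log2 change of 0.63 (SE 0.22, adjusted p = 0.0251), which was lost in 7 of 15 alternatives, including 5 of the 6 with a library left out (adjusted p from 0.0697 to 0.114).

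The long TEAD1, YAP1 and WWTR1 genes had most of their peaks in introns, and few of these changed. In TEAD1, 13 of 15 tested flanking peaks were not called. The intronic peak 19.2 kb from its main TSS (chr11:12714273-12715994), the strongest of them, had 109.4, 98.4 and 134 in G1 and 199.8, 233.6 and 215.6 in M-phase. It rose without overlap, by 0.89 (SE 0.19, adjusted p = 1.79e-04), in the same direction as the TEAD1 start, and was called in all 15 alternatives. Over its whole width it held 2 TEAD cores, 3 AP-1 sites and 1 RUNX match. Of 1292 peaks at no TSS and of similar width, 61.1% held a TEAD core, 56.7% an AP-1 site and 66.1% a RUNX match. A small peak over a TEAD1 coding exon (chr11:12886403-12886634) fell from 15.9, 16.4 and 20 to 4.1, 12.8 and 4.8. Its log2 change was -0.78 (SE 0.29, adjusted p = 0.0321), and it was not called in 8 of 14 alternatives, among them the count models edgeR (adjusted p = 0.0589) and DESeq2 (adjusted p = 0.0857).

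In YAP1, 1 of 5 tested flanking peaks was called. This intronic peak, 28.7 kb from the TSS (chr11:102009574-102010212), is the one shown above with 2 AP-1 sites and a CArG box, and it had 17.9, 18 and 20 in G1 and 62.6, 34.6 and 51 in M-phase. The G1 libraries lay close together and below each M-phase library, with a log2 change of 1.08 (SE 0.27, adjusted p = 0.00103). The strongest YAP1 flanking peak (chr11:102096507-102097611) changed by -0.29 (SE 0.24, adjusted p = 0.403).

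WWTR1, whose starts were not called, had called flanking peaks in both directions. The one that rose, 77.8 kb from the main TSS (chr3:149297828-149298292), which had 2 RUNX and no TEAD match, had 18.9, 15.6 and 19 in G1 and 59.3, 63.5 and 48.6 in M-phase. The M-phase libraries lay far above the G1 libraries, and the log2 change was 1.33 (SE 0.26, adjusted p = 3.25e-05), the largest rise among the 41 tested flanking peaks. The one that fell, 103 kb from the main TSS (chr3:149272607-149273121) had 34.8, 24.2 and 55 in G1 and 16.9, 9.9 and 19.2 in M-phase. Here the M-phase libraries were all lower, with a log2 change of -0.95 (SE 0.28, adjusted p = 0.00733), but the call was lost without G1 replicate 3 (adjusted p = 0.0879) or M-phase replicate 2 (adjusted p = 0.0755). The called rises of flanking peaks in YAP1 and WWTR1 held in all 15 alternatives. The strongest WWTR1 flanking peak (chr3:149299181-149300017) changed by 0.50 (SE 0.21) and was not called (adjusted p = 0.0682).

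**Figure D4:**
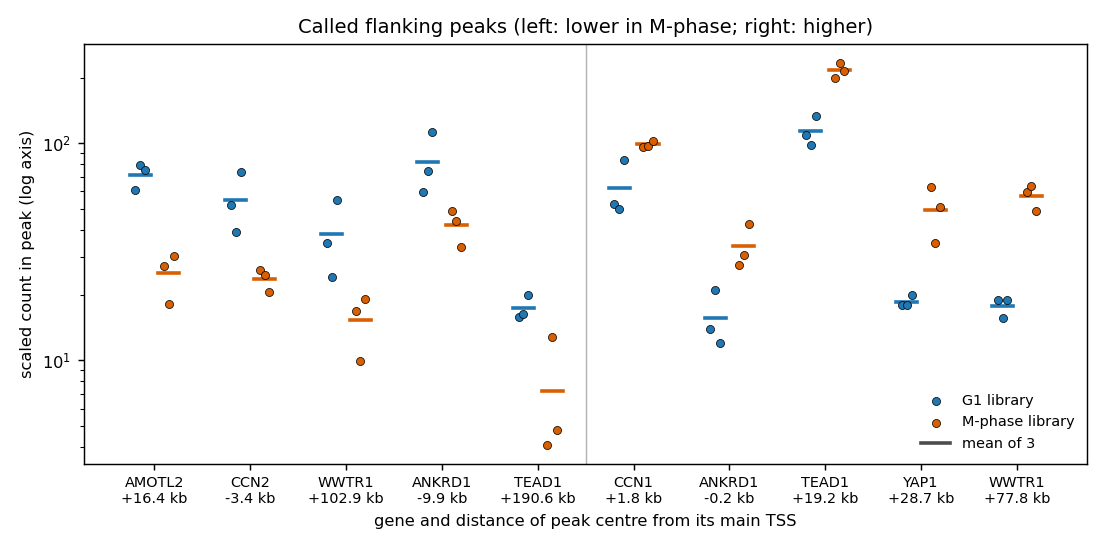
Scaled counts (log axis) in 3 G1 and 3 M-phase libraries of the 10 called flanking peaks at no start of another gene, with a bar at the mean of 3; the distance is from the peak centre to the main TSS, negative upstream. The 5 peaks on the left were lower in M-phase, with AMOTL2 at 60.6 to 78.9 in G1 and 18.1 to 30.3 in M-phase, and the 5 on the right were higher, with WWTR1 at 15.6 to 19 in G1 and 48.6 to 63.5 in M-phase.

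The start and the distal peaks of a gene were also compared inside each library, where a single scaling factor per library has no effect. Loess, which moves strong and weak peaks by different amounts, can change this ratio and was not applied to it. For each gene the scaled counts of its TSS peaks (for ANKRD1, of the peak near its TSS) were divided by those of its flanking peaks that lie over 1 kb from its own starts and at no start of another gene. This measure was chosen after the peak values had been seen. CCN1 has no such flanking peak, which left 8 genes. At TEAD3, CCN2 and ANKRD1 the ratio is that of 1 start peak to 1 flanking peak. For CCN2 and ANKRD1 these are the peaks called higher and lower above, so their ratios restate those calls and add no further peaks. At CCN2 the log2 ratio was 2.25, 2.54 and 2.22 in G1 and 3.93, 3.82 and 4.54 in M-phase. Its mean rose by 1.76, from 2.34 ± 0.18 to 4.10 ± 0.39 (SD, n = 3). ANKRD1 moved most, from -2.38 ± 0.75 to -0.33 ± 0.61, TEAD1 went from -1.19 ± 0.28 to 0.04 ± 0.12, and AMOTL2 from 0.07 ± 0.23 to 1.09 ± 0.18.

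In these 4 genes, and in TEAD4 and WWTR1, every M-phase library had a higher ratio than every G1 library, while at TEAD3 and YAP1 the phases overlapped. For each of the 6 an exact permutation test (two-sided) returned p = 0.1, which is as small as 3 against 3 libraries can give, and 0.133 after Benjamini-Hochberg adjustment over the 8 genes. Low counts enter the ratio at TEAD4, whose flanking peaks summed to means of 28.4 in G1 and 23.9 in M-phase. They also enter at CCN2, whose flanking peak had a mean of 23.8 in M-phase. At ANKRD1 the start peak had a mean of 15.7 in G1. Among the 7 genes with a TSS peak, 5 had this separation. The same ratio over 9584 protein-coding genes with such peaks separated the phases in this direction in 39.4%, with a median difference of 0.47 and quartiles of -0.05 and 0.98. The differences at CCN2, TEAD1 and AMOTL2 (1.02) were above the upper quartile, and those at YAP1 (0.35) and WWTR1 (0.31) were below the median.

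**Figure D5:**
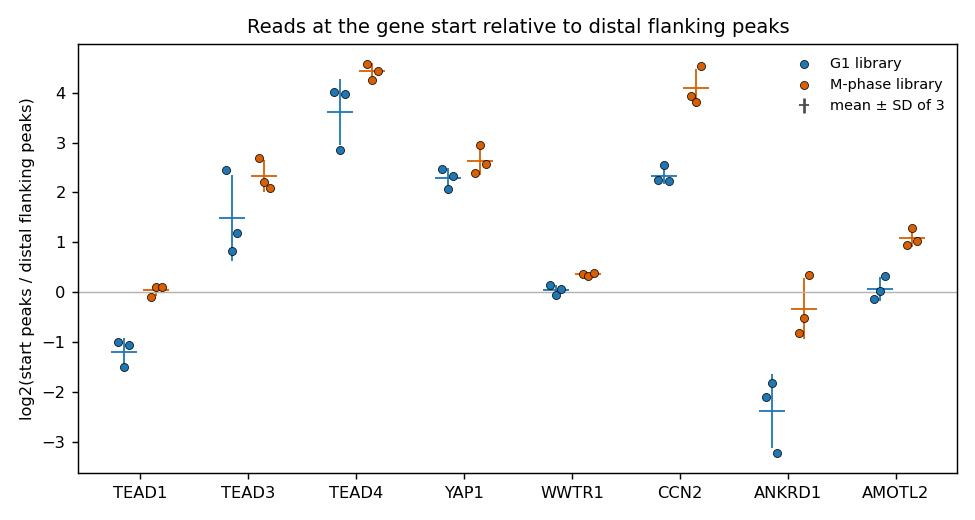
Log2 ratio of scaled counts in peaks at the gene start to those in distal flanking peaks of the same gene, for 8 genes, 1 point per library with the mean ± SD of 3 libraries per phase. TEAD3, CCN2 and ANKRD1 have only 1 distal flanking peak each. The M-phase points lie above all G1 points at TEAD1, TEAD4, WWTR1, CCN2, ANKRD1 and AMOTL2, with CCN2 at 2.22 to 2.54 in G1 and 3.82 to 4.54 in M-phase.

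Flanking peaks with and without TEAD letters were then set side by side. Of the 18 tested flanking peaks that held a TEAD core, 3 rose and 4 fell, with a median log2 change of -0.22, and of the 23 without a core, 4 rose and 1 fell, with a median of -0.08. The peaks with a core were also wider, with median widths of 775 and 465 bp, so a match by length alone is more likely in them. Over all tested peaks at no TSS, 8.99% of the 15922 with a core rose and 19.1% fell, with a median of -0.08. Of the 41699 without, 5.56% rose and 13.4% fell, with a median of -0.04. The 6 flanking peaks of the 9 genes with a FOX match had a median of -0.63, and 3 of them fell, while the 35 without had a median of 0.06, and 2 fell. The 3 with a FOX match that fell, at TEAD1, WWTR1 and ANKRD1, are also among the 4 falls with a TEAD core. The TEAD and FOX comparisons therefore rest in part on the same peaks, and the TEAD1 fall was called in 6 of 14 alternatives. Peaks with a FOX match were wider, with median widths of 648.5 and 535 bp. Over all tested peaks at no TSS, 23.1% of the 4491 with a FOX match fell, with a median of -0.18, and 14.3% of the others fell, with a median of -0.04. For AP-1 the median was 0.09 in 13 peaks of the 9 genes with a site, of which 3 rose and 2 fell. In the 28 without it was -0.09, and 4 rose and 3 fell. Over all tested peaks at no TSS, 13.2% of the 16901 with an AP-1 site rose and 17.65% fell. Of the 40720 without, 3.74% rose and 13.9% fell. For RUNX, 4 of 20 peaks with a match rose and 3 fell, and 3 of 21 without rose and 2 fell. Over all, 7.98% with a RUNX match rose and 18.8% fell, against 5.76% and 13.0% without. Only 3 peaks of the 9 genes held a CArG box.

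Starts and flanks were counted in the same way for a list of 23 further genes of the Hippo pathway and a list of 18 further YAP/TAZ target genes, which share LATS2 and PTPN14. In the pathway list 18 of 28 tested TSS peaks rose and 0 fell by limma, edgeR or DESeq2 (at an unadjusted p under 0.05, 0, 0 and 1), and their median log2 change was 0.75. Of 107 tested flanking peaks 14 rose and 19 fell, with a median of 0.03. The largest rises at a start were those of SAV1, the scaffold of the STK3 and STK4 kinases, at 1.29 (SE 0.22, adjusted p = 2.65e-06), and of STK4 at 1.20 (SE 0.18, adjusted p = 5.63e-08). Among its flanking peaks the largest falls were in AMOT, another angiomotin, at -1.70 (SE 0.25, adjusted p = 7.65e-08), and in PTPN14, a phosphatase that binds YAP, at -1.69 (SE 0.27, adjusted p = 5.30e-07). Its largest flanking rises lay at starts of neighbouring genes, SACM1L near LIMD1 (1.27) and DKKL1 near TEAD2 (1.26).

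In the target list 14 of 20 tested TSS peaks rose and 0 fell by any of these, unadjusted p included, with a median of 0.70, and of 107 tested flanking peaks 17 rose and 29 fell, with a median of -0.01. MYOF, a membrane repair protein gene, rose most at its start, by 1.42 (SE 0.21, adjusted p = 6.72e-08), followed by TGFB2, a growth factor gene, by 1.27 (SE 0.21, adjusted p = 5.06e-07). The strongest flanking rise was in the receptor tyrosine kinase gene AXL, at 2.03 (SE 0.22, adjusted p = 2.10e-12), and the next was also near AXL, at the start of HNRNPUL1 (1.56). The strongest falls were in RBMS3, an RNA-binding protein gene, at -2.07 (SE 0.29, adjusted p = 1.69e-08), and in ASAP1 at -1.69 (SE 0.26, adjusted p = 1.94e-07). In this list 5 of 18 genes, and in the pathway list 3 of 23, had both a TSS peak that rose and a flanking peak that fell, as CCN2 did, beside 6.83% of 13405 protein-coding genes with a TSS peak. That share was not matched for the number of flanking peaks per gene. The TSS shares stand beside 43.2% of all tested TSS peaks that rose. Without the peaks at starts of other genes, 6 of 95 flanking peaks rose and 19 fell in the pathway list (6.32% and 20.0%), and 14 of 104 rose and 29 fell in the target list (13.5% and 27.9%), beside 6.51% and 15% of all tested peaks at no TSS. With equal totals the numbers over all peaks of a list were 20 that rose and 38 that fell in the pathway list, and 20 that rose and 40 that fell in the target list. Under that scaling 29.3% of all tested TSS peaks rose and 17.2% fell. Of all tested peaks at no TSS, 3.12% rose and 26.8% fell, so falls were more frequent throughout than with the authors' scaling.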

How the data were processed

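ATAC-seq of synchronized T98G cells was used from 3 G1 and 3 M-phase libraries, and the chromatin fraction and input libraries were not analysed here. Adapters were removed with cutadapt, reads were mapped to hg19 with Bowtie through QuasR (up to 3 locations allowed, of which 1 was kept), mitochondrial reads were removed with SAMtools, and broad peaks were called with MACS2 on merged replicates of each phase and merged between phases. These tools are named in the methods and in the submitters' processing notes, where versions are not given. Whether reads were shifted for the Tn5 insertion is not given in the sources used here. The deposited table gives a signal per peak and library: the authors counted reads, scaled each library down to the size of the smallest and rounded the result to 0.1. Its log2 fold change and SD columns were not used. The number of unused columns of single samples was 0. How the HiSeq and NextSeq runs of an M-phase replicate were joined is not given in the sources used here.

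A peak entered the fit if its values summed to 15 or more and if 3 or more libraries reached the equivalent of 10 in the median-sized library, and limma 3.58.1 (R 4.3.3, mean-variance trend, no covariates, two-sided, Benjamini-Hochberg) was fitted to log2(scaled count + 8) of the 73121 peaks left. TSS peaks overlap the start of any transcript of the gene in GENCODE release 44 lifted to GRCh37, and distances are from the Ensembl canonical start. Whole reads recovered from the scaled counts (between 99.94% and 100% of values whole within 0.051) were fitted with edgeR 4.0.16 and DESeq2 1.42.0 as alternatives. Sequences and motifs were read from the GRCh37 genome with pysam 0.24.0. Python 3.11.15, pandas 2.3.3, scipy 1.17.1 and matplotlib 3.10.9 were used otherwise.

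For each gene the strongest TSS peak and flanking peak were named, with the called flanking peaks of largest rise and fall, and for each list up to 2 called peaks each way. The 9 genes, both lists and the named peaks' rule were chosen with earlier results of these data known. Since the labels do not tie replicates to separate cultures, p-values measure only the spread between these libraries.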

Additional observations from a re-analysis of the deposited data

How the results depend on the processing

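The counts of peaks that rose and fell were recomputed under other scalings, filters, models and definitions of a peak's gene. The replicate numbers did not pair the libraries: deviations of same-numbered libraries from their group means had correlations of 0.00594, -0.0101 and 0.0284 over peaks. With the replicate number as a block the member TSS peaks gave 5 that rose and 0 that fell and the flanking peaks 7 and 5, as without it, and over all peaks the block gave 10881 and 10063 in place of 10439 and 9548. With equal totals in peaks, 3 member TSS peaks and 4 flanking peaks rose and 11 flanking peaks fell. The lists gave 20 (Hippo) and 20 (targets) that rose and 38 (Hippo) that fell. Over all 73121 tested peaks this scaling gave 6341 that rose and 18090 that fell. With TMM 29 pathway peaks fell, and with a mean of at least 20, which tests fewer peaks, 12 did, against 19. Over all peaks, 12631 of 73121 fell with TMM and 6277 of 41487 with that filter, against 9548 of 73121. With loess 2 member TSS peaks rose and 1 fell, beside 21.3% and 17.1% of all tested TSS peaks. With the gene body alone 4 flanking peaks rose and 3 fell, and with 50 kb on each side, which adds peaks, 11 flanking peaks fell and 45 target list peaks did, against 29. Changing the gene region leaves the fit and the shares over all peaks as they were. With a library left out, the counts ranged from 4 to 8 (TSS higher), 4 to 8 (flanking higher), 3 to 6 (flanking lower), 24 to 34 and 15 to 19 (Hippo higher, lower) and 27 to 36 and 21 to 26 (targets higher, lower). TSS lower stayed at 0. Over all 73121 tested peaks the counts then ranged from 7985 to 11906 that rose and from 7171 to 8872 that fell. The widest definition of a TSS peak, within 1 kb, moved none of the member counts by more than 1.5 times. edgeR and DESeq2 on recovered reads gave 9899 and 9025, and 9608 and 8383, over all peaks, and 5 and 0 (TSS) and 7 and 4 (flanking) for the 9 genes with both.

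Of 358 values of named peaks under single alternatives, 307 kept their direction and side of the threshold, 29 lost and 8 gained a call, and 14 changed sign. The sign changed with equal totals at the TSS peaks of TEAD3 (-0.0138), WWTR1 (-0.0773) and AMOTL2 (-0.0669), and with loess at those of TEAD3 (-0.15), TEAD4 (-0.17), WWTR1 (-0.45), CCN2 (-0.12) and AMOTL2 (-0.26) and at the CCN1 flanking peak over DDAH1 (-0.20). It also changed at the strongest flanking peaks of TEAD4 (0.0151 with loess, and -0.25 to 0.148 with a library left out, above 0 without G1 replicate 2 or M-phase replicate 3, against -0.08 as reported) and YAP1 (-0.52 to 0.00764 with a library left out, above 0 without G1 replicate 3 or M-phase replicate 2, against -0.29 as reported). The cause was not tested. Depth limits peaks with low G1 counts, where 1 read is worth up to 1 scaled count.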
